A study of Mus musculus with 8 samples.

Results

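The HOX genes encode homeodomain transcription factors that lie in 4 clusters, HOXA on chromosome 6, HOXB on chromosome 11, HOXC on chromosome 15 and HOXD on chromosome 2 of the mouse. The members were the genes whose probe sets carried a single annotated symbol made of Hoxa, Hoxb, Hoxc or Hoxd and a number, with antisense transcripts left out and the probe set of highest mean over all arrays kept for each gene. This gave 36 HOX genes of 22180 genes with a symbol: 9 in HOXA, 10 in HOXB, 9 in HOXC and 8 in HOXD. They were measured in epididymal white adipose tissue (eWAT), the visceral fat pad beside the epididymis, of male C57BL/6J mice aged 14 weeks that went without food overnight and then had chow for 1 h. One group was wild type (WT, 3 mice) and the other lacked Abhd15 (KO, 5 mice), an alpha/beta-hydrolase family gene expressed in adipocytes. All the mice shared strain, sex, diet and feeding state, and the labels do not state how Abhd15 was disrupted. Each mouse gave 1 Affymetrix Mouse Gene 2.0 ST array from 200 ng of RNA, with values on a log2 scale. Other fat depots were not measured, so the HOX pattern is that of epididymal fat alone.

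HOX genes are numbered by paralog group along each cluster. Genes of low number lie at the 3′ end and are used toward the head of the embryo, those of high number lie at the 5′ end and are used toward the tail, so that the set of active HOX genes records where along the body axis a cell arose. Adult fat keeps such a record: depots and their preadipocytes differ in HOX expression, and HOX and other developmental genes are widely used to tell one depot from another. Active and silent stretches of a cluster are held by trithorax and Polycomb proteins, and HOX proteins bind DNA together with the TALE homeodomain cofactors of the PBX, MEIS and PKNOX families.

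In WT fat the HOX signal was highest in the middle of the clusters and near the floor at their 5′ ends. As a floor, the 95th percentile of the WT means of 1088 olfactory receptor genes was used, which was 2.47 on the log2 scale. Of the 36 HOX genes, 24 had a WT mean above it, against 66.3% of all 22180 genes. All 11 members of paralog groups 5 to 8 lay above the floor, as did 8 of 10 in groups 1 to 4 and 5 of 15 in groups 9 to 13. With the 99th percentile (3.30) as floor, 18 HOX genes lay above it: 7 of groups 1 to 4, 9 of groups 5 to 8 and 2 of groups 9 to 13 (Hoxb9 and Hoxc9). A probe set's brightness also depends on the affinity of its probes, so levels describe signal and do not rank amounts of RNA between genes.

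**Figure D1:**
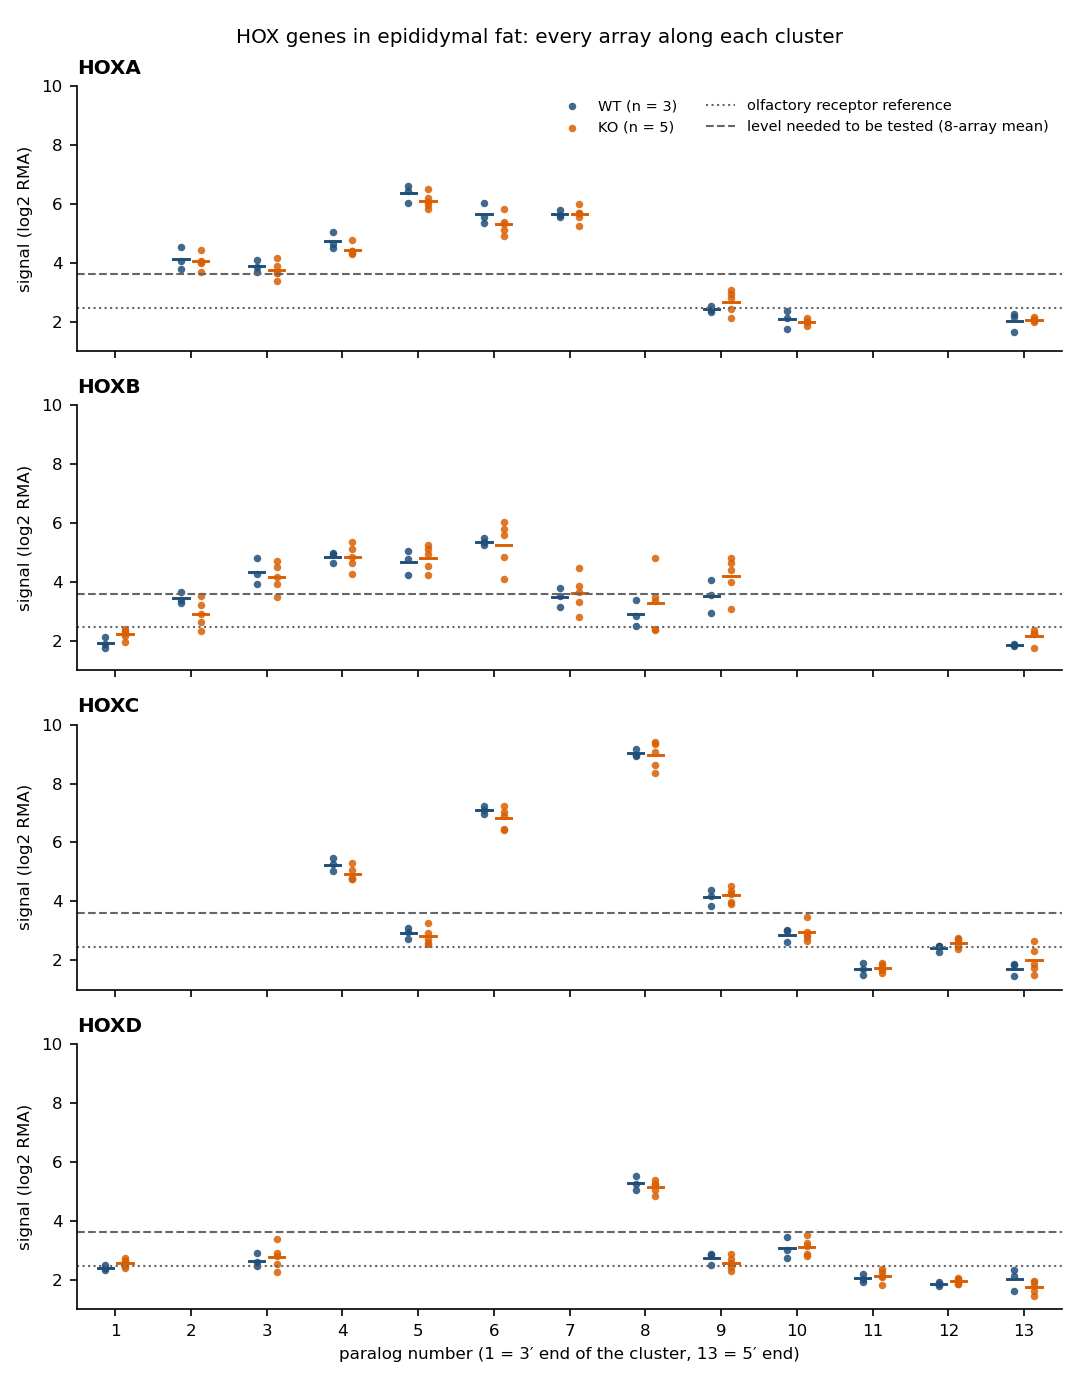
Signal of the 36 HOX genes (log2 RMA values, vertical axis) by paralog number (horizontal axis), with 1 panel per cluster. Each point is 1 array, short bars are group means of WT (blue, n = 3) and KO (orange, n = 5), the dotted line is the olfactory receptor floor (2.47) and the dashed line the 8-array mean needed for a gene to be tested (3.61). Hoxc8 reads about 9 in both groups, whereas Hoxa10, Hoxa13, Hoxc11, Hoxc13 and Hoxd11 to Hoxd13 lie below the dotted line in both group means.

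The tissue label was checked on marker genes. All 9 measured adipocyte markers lay above the floor, the lowest array mean being 10.5, and the 9 mesothelial markers had array means of 5.44 to 5.83. The arrays correlated with each other at 0.962 to 0.978 over all probe sets. KO 5 stood apart among the KO arrays, being the lowest of them in 37.1% of all tested genes, against 14.9% to 16.8% for each of the others. Its median over the tested genes was 5.929, against 6.035 to 6.0675 in the other arrays. The Abhd15 signal was 6.32 ± 0.157 (SD, n = 3) in WT and 5.89 ± 0.271 (SD, n = 5) in KO, with overlapping arrays and an adjusted p of 0.423 in limma. The position of its probes relative to the deletion is not known, so the genotype labels went unchecked. Male tract transcripts stood out in single arrays and stimulus-induced genes in others, and their values are given below beside the HOX genes that they accompany. Tissue RNA was measured, in which fewer cells of a type and less RNA per cell cannot be told apart.

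Around the boundary of paralog groups 8 and 9 the signal of neighbouring genes differed from cluster to cluster. In HOXA, Hoxa7 read 5.65 ± 0.128 (SD, n = 3) in WT and its measured 5′ neighbour Hoxa9 read 2.42 ± 0.0904. In HOXD, Hoxd8 read 5.28 ± 0.234 and Hoxd9 read 2.73 ± 0.203. In HOXC, Hoxc8 read 9.03 and Hoxc9 4.14, whereas in HOXB, Hoxb8 read 2.91 and Hoxb9 3.52. The 5′ gene thus gave the lower signal in 3 clusters and the higher one in HOXB, each read by probes of its own. Sequences are shown for HOXA and HOXD, where the 5′ gene lay close to the floor. These 4 genes were picked after their values had been seen, and the 250 bases before their annotated starts are printed to set the DNA of each pair side by side. They come from RefSeq on GRCm38.p6, read 5′ to 3′ on the strand of the gene, with every CpG, the dinucleotide at which DNA is methylated and which is dense in Polycomb and trithorax target promoters, in capitals. Hoxa7 (chr6:52218574-52218823, minus strand) held 7 CpG and Hoxa9 (chr6:52227371-52227620, minus strand) held 3. Hoxd8 (chr2:74704365-74704614, plus strand) held 6 and Hoxd9 (chr2:74697513-74697762, plus strand) held 13.
Hoxa7: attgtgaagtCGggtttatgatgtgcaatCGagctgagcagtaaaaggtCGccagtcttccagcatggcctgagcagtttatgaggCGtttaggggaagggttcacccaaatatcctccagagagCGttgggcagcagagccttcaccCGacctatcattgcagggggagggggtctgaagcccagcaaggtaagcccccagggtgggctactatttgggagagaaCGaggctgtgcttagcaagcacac
Hoxa9: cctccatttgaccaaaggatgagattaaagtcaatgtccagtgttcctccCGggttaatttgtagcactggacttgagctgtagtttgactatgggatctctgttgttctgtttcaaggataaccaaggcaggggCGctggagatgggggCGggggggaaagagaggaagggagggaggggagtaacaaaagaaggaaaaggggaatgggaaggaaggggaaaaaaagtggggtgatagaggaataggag
Hoxd8: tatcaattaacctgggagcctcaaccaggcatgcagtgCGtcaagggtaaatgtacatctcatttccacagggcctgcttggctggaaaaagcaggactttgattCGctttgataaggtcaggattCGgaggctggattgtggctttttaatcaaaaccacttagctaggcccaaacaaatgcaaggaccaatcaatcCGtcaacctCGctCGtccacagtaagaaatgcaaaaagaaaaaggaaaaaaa
Hoxd9: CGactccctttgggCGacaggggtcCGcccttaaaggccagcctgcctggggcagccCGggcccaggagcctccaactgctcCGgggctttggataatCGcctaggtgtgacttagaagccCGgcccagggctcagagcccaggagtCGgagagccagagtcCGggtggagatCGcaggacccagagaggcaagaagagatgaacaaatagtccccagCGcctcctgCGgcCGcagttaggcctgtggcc

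CpG content and signal did not go the same way in both pairs: the brighter gene held more CpG in HOXA and fewer in HOXD. A promoter window was listed for 20 of the 36 HOX genes. Their median was 12 CpG and 58.6% G+C, against 6 CpG and 52.4% over the 32851 windows of all genes. Among the 20, the 12 genes above the floor in WT had a median of 12.5 CpG (6 to 28) and the 8 below it had 8.5 (2 to 35), ranges that overlap widely.

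KO differed from WT in no HOX gene beyond the threshold. The 8-array mean had to reach the median of all genes (3.61) for a gene to be tested, and 16 HOX genes did. None of these 16 passed an adjusted p of 0.05 in limma, where 0% of the 11090 genes tested passed. At an unadjusted p under 0.05 the count was also 0 of 16, where 10.5% of all tested genes passed (4.04% higher and 6.46% lower in KO). In none of the 16 did all KO arrays lie beyond all WT arrays, a separation seen in 8.53% of tested genes (2.99% higher and 5.54% lower in KO). With the replicate number as a block, the contrast rests on KO 1 to KO 3. In that fit limma gave 1 HOX gene higher (Hoxb9) and 3 lower (Hoxa6, Hoxb3 and Hoxc4) at an unadjusted p under 0.05. Of all genes 18% had such a p. Again no HOX gene passed the adjusted threshold, which 2 of the 11090 genes passed. With array weights the count at an unadjusted p under 0.05 was 1 lower (Hoxa6), against 16.9% of all genes.

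The fitted differences of the 16 tested HOX genes were small. Of the 16, 13 were lower and 3 higher in KO, with a median log2 fold change of -0.12, where 55.2% of all tested genes were lower and their median was -0.03. With each array centred on its median, 11 of 16 were lower, and among all genes with an unadjusted p under 0.05 the share higher in KO moved from 38.5% to 48.7%. Without KO 1 and KO 2 only 7 of 17 tested HOX genes were lower. By position, all 6 tested genes of groups 1 to 4 and 7 of 8 of groups 5 to 8 were lower in KO, and both of groups 9 to 13 (Hoxb9 and Hoxc9) were higher, of which Hoxb9 reached the level for testing only through its KO values. A difference between positions was not tested, and the split depended on the arrays: without KO 1 and KO 2, 4 of the 6 genes of groups 1 to 4 were higher, and with centred arrays Hoxb4 and Hoxa7, both within 0.02 of 0, turned positive. Without the level filter 7 of 10 genes of groups 1 to 4 were lower, as were 8 of 11 of groups 5 to 8 and 3 of 15 of groups 9 to 13. The 95% intervals of the differences ran from -0.96 at the lowest (Hoxb6) to 1.53 at the highest (Hoxb9). Differences up to those sizes thus lay within the intervals of those genes.

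**Figure D2:**
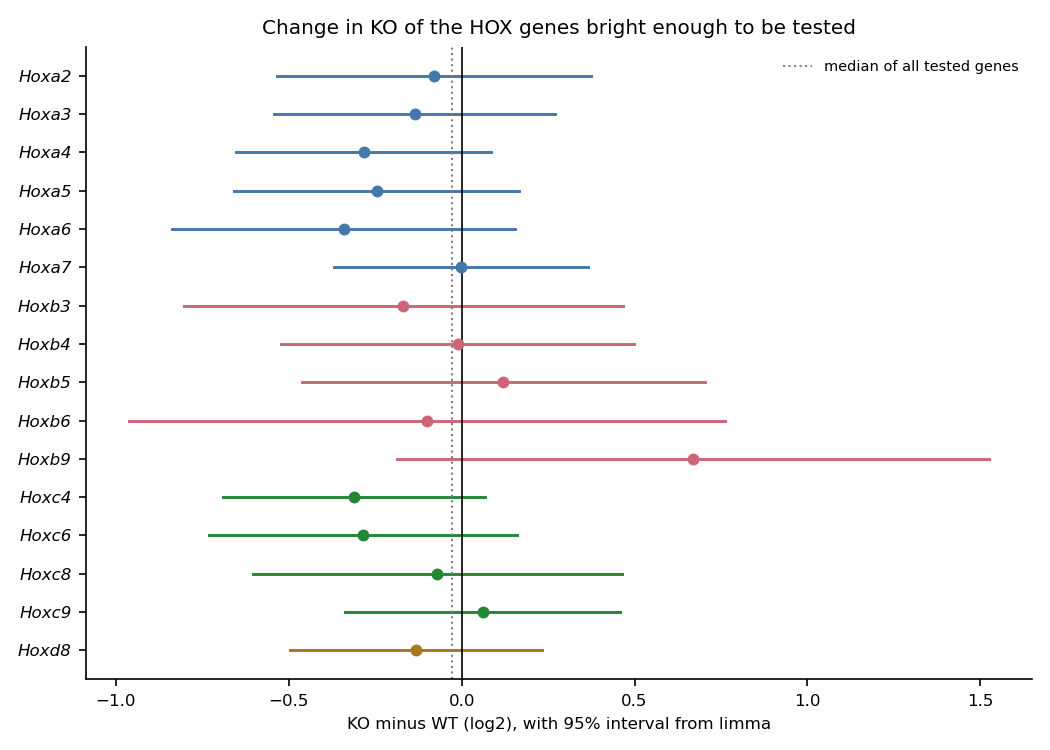
Difference between KO and WT of the 16 tested HOX genes (horizontal axis, log2, KO minus WT), in order of cluster and paralog number, with 95% intervals from limma (WT n = 3, KO n = 5) and 1 colour per cluster. Every interval includes 0, the dotted line marks the median of all 11090 tested genes (-0.03), and the widest intervals are those of Hoxb6 and Hoxb9.

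In HOXA the 6 genes from Hoxa2 to Hoxa7 lay above the floor in WT and Hoxa9, Hoxa10 and Hoxa13 did not. Hoxa2, which patterns the hindbrain and neural crest, read 4.13 ± 0.383 (SD, n = 3) in WT and 4.05 ± 0.267 (SD, n = 5) in KO. Hoxa3, needed for the thymus and parathyroid, read 3.69, 3.87 and 4.09 in WT 1 to WT 3 and 3.64, 3.38, 4.15, 3.66 and 3.90 in KO 1 to KO 5. The KO arrays reached above and below the WT arrays, and KO minus WT was -0.14 (log2, SE 0.182, adjusted p = 0.827 in limma). Its annotated span in RefSeq overlaps Hoxa4, Hoxa5 and Hoxa6, so its signal may not be its own alone.

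Hoxa4, an anterior member of the cluster, read 4.49, 5.03 and 4.64 in WT and 4.78, 4.41, 4.39, 4.28 and 4.32 in KO. All KO arrays except KO 1 lay below the lowest WT array, and KO 1 lay within the WT range. The log2 fold change was -0.28 (SE 0.165, adjusted p = 0.575 in limma), and an exact permutation test, two-sided over 56 splits with a smallest possible p of 0.0357, gave 0.179. Without KO 1, its highest KO array, the groups separated and the log2 fold change was -0.37 (unadjusted p = 0.0416, adjusted p = 0.495 in limma). Over the runs that left out 1 array the log2 fold change ran from -0.40 to -0.13.

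Hoxa5, which is needed for lung and axial skeleton development and is a known depot marker of visceral fat, was the brightest HOXA gene in WT. It read 6.60, 6.04 and 6.42 in WT and 5.81, 5.97, 6.05, 6.20 and 6.51 in KO. The lowest KO arrays were KO 1 and KO 2, and KO 3 to KO 5 lay within the WT range. KO minus WT was -0.25 (log2, SE 0.185, adjusted p = 0.677 in limma).

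Hoxa6 read 5.55, 5.35 and 6.04 in WT and 4.89, 5.11, 5.40, 5.32 and 5.81 in KO. KO 1, KO 2 and KO 4 lay below all WT arrays, and KO 3 and KO 5 lay within their range. KO minus WT was -0.34 (log2, SE 0.222, adjusted p = 0.617 in limma, exact permutation p = 0.25, two-sided), and it was -0.47 without KO 5 (unadjusted p = 0.0392, adjusted p = 0.316) but -0.15 without WT 3.

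Hoxa7 read 5.62, 5.79 and 5.54 in WT and 5.99, 5.26, 5.57, 5.70 and 5.70 in KO. The KO arrays spread to both sides of the WT arrays and the group means were equal to within 0.001, with a 95% interval of the difference from -0.37 to 0.37. Of the posterior HOXA genes, Hoxa9, used in blood progenitors and in the posterior axis, read 2.42 in WT and 2.68 ± 0.387 (SD, n = 5) in KO. Hoxa10 and Hoxa13, which pattern the reproductive tract and the limb ends, read 2.09 and 2.02 in WT and 1.99 and 2.06 in KO.

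HOXB was the cluster whose genes varied most among KO mice. In WT, 8 of its 10 measured genes lay above the floor, with only Hoxb1 (1.92), a hindbrain gene, and Hoxb13 (1.85), a gene of the tail end and prostate, below it. The median SD over KO arrays was 0.482 for the 5 tested HOXB genes, 0.266 for HOXA and 0.302 for HOXC, and 0.238 for all tested genes. The KO SD of Hoxb6 exceeded that of 97.8% of all tested genes and that of Hoxb9 exceeded 96.7%. A wide spread in HOXB was not limited to KO mice. Hoxb9, Hoxb3 and Hoxb5 also had the largest SDs over WT arrays among the tested HOX genes. Hoxb6 went the other way, with the smallest WT SD among them, and Hoxb4 varied less in WT than in KO. Whether the spread differed between the genotypes was not tested. Abhd15 and HOXB both lie on chromosome 11, and whether this shared chromosome has a part in the HOXB values was not tested.

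Hoxb6 read 5.25, 5.37 and 5.50 in WT and 4.09, 4.84, 5.79, 6.05 and 5.59 in KO. No KO array lay within the narrow WT range: KO 1 and KO 2 were below it and KO 3, KO 4 and KO 5 above it. The log2 fold change was -0.10 (SE 0.386, adjusted p = 0.949 in limma), and without KO 1 and KO 2 it was 0.44 (unadjusted p = 0.0291, adjusted p = 0.485). That run drops the KO arrays below WT and keeps those above it, so its direction was set by the choice of arrays.

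Hoxb9, a posterior gene of thoracic and mammary patterning, read 2.94, 3.54 and 4.08 in WT and 3.07, 4.01, 4.64, 4.41 and 4.81 in KO. KO 3 to KO 5 lay above all WT arrays, whereas KO 1 lay near the lowest of them. It had the highest log2 fold change of the tested HOX genes, 0.67 (SE 0.384, adjusted p = 0.567 in limma, exact permutation p = 0.214, two-sided). Its WT mean (3.52) lay under the level needed for testing, so it was tested through its KO values. Without KO 1, its lowest KO array, the log2 fold change was 0.95 (unadjusted p = 0.00720, adjusted p = 0.368). Without WT 1, its lowest WT array, the log2 fold change was 0.38.

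Hoxb4, which promotes self-renewal of blood stem cells, read 4.66, 4.98 and 4.94 in WT and 4.28, 4.64, 5.13, 5.37 and 4.84 in KO. KO 1 and KO 2 lay below the WT arrays and KO 3 and KO 4 above them, as in Hoxb6, and the log2 fold change was -0.01 (SE 0.229, adjusted p = 0.991 in limma). Hoxb3, whose annotated span overlaps Hoxb4, averaged 4.34 ± 0.440 (SD, n = 3) in WT against 4.17 ± 0.482 (SD, n = 5) in KO, and Hoxb5 4.69 ± 0.419 against 4.82 ± 0.428. A second, dimmer probe set of Hoxb5 gave a like difference (0.11 against 0.12). Hoxb5 was the only HOX gene with more than 1 probe set of its own.

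The dim HOXB genes Hoxb2, Hoxb7 and Hoxb8 lay above the floor but were not tested. Hoxb8, which acts in axial patterning and in myeloid cells, read 2.85, 2.49 and 3.40 in WT and 2.37, 2.39, 3.35, 4.83 and 3.49 in KO. KO 4 stood highest and KO 1 and KO 2 lay below all WT arrays. Hoxb7 read 3.54, 3.15 and 3.78 in WT and 2.80, 3.33, 3.68, 4.46 and 3.88 in KO, again with KO 1 lowest and KO 4 highest. Hoxb2, a hindbrain gene, had the lowest log2 fold change of the untested genes (-0.52), with 3.28, 3.41 and 3.66 in WT and 2.63, 2.34, 2.91, 3.51 and 3.23 in KO. For Hoxb2 the KO arrays lay below WT except KO 4, and in that gene KO 2, not KO 1, was lowest.

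The same KO arrays were low and high across the cluster. Among the 8 HOXB genes above the floor, KO 1 was the lowest KO array in 7, where it was lowest in 14.9% of all tested genes, and KO 4 was the highest in 6, where it was highest in 18% of all tested genes. The mean over the 5 tested HOXB genes was 4.32, 4.48 and 4.88 in WT and 3.83, 4.39, 5.01, 5.13 and 4.93 in KO, so the KO arrays ranged on both sides of WT. In the 6 HOXA genes above the floor KO 1 was lowest in 2 and KO 4 highest in none, and in the 6 HOXC genes KO 1 was lowest in 1 and KO 4 highest in 1. These genes are neighbours in 1 tissue sample per mouse, so they do not count as separate replicates of the order of the arrays.

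**Figure D3:**
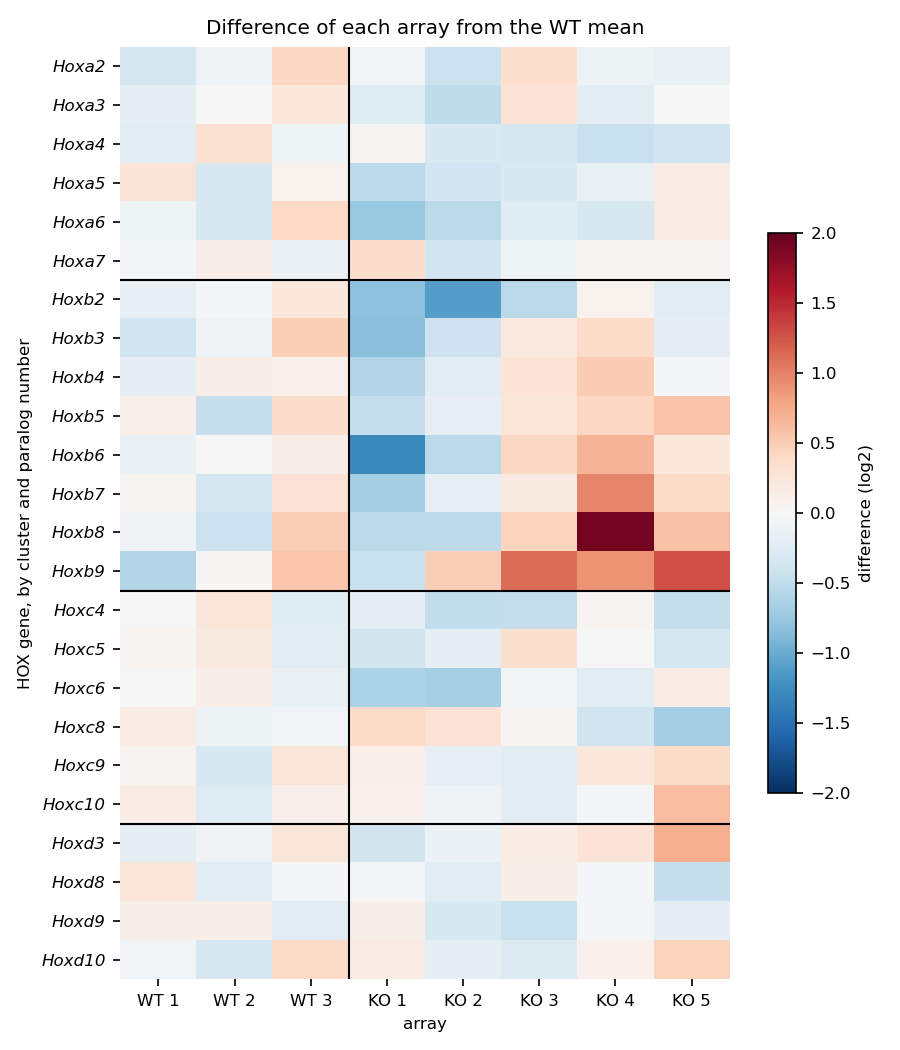
Difference of every array from the WT mean (colour, log2, blue lower and red higher) for the 24 HOX genes above the floor in WT (rows, by cluster and paralog number) in the 3 WT and 5 KO arrays (columns). In the HOXB rows KO 1 is blue throughout and KO 4 is red from Hoxb3 to Hoxb9, and the darkest cells of the map are Hoxb8 in KO 4, Hoxb9 in KO 5 and Hoxb6 in KO 1.

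Transcripts of other tissues and of early responses also differed between these arrays. The mean over 19 measured genes of the epididymis and seminal duct was 3.08 in WT 1 and 3.33 in KO 4, and 2.01 to 2.19 in the other arrays. None of these 19 genes was bright enough to be tested, and 7 had a WT mean above the floor. Seen afterwards, WT 1 and KO 4 were raised in different genes. In WT 1 the seminal vesicle genes Svs1, Svs2, Svs4, Svs5 and Svs6 read 5.06 to 7.43 and Svs3a 1.19. In KO 4 all of them read 1.41 to 2.58. Lcn12 read 7.44, Spag11a 5.98 and Pax2 3.98 in KO 4, against 2.25 to 2.89 in WT 1. Lcn6, Lcn8, Lcn9, Lcn10, Rnase10, Gpx5, Spag11b and Cst11 read 1.31 to 2.74 in KO 4. Adam7, a gene of the epididymal epithelium, read 1.67 to 1.90 in WT and 1.69, 1.96, 4.93, 10.2 and 3.73 in KO and was singled out after its values were seen. Lcn5, a lipocalin of the same tissue, read 2.23 to 2.63 in WT and 3.44, 2.73, 3.03, 8.56 and 3.30 in KO. Both were highest in KO 4. Adam7 ranked the KO arrays as the HOXB means did, from KO 1 through KO 2, KO 5 and KO 3 to KO 4, whereas Lcn5 was lowest in KO 2. In WT Adam7 lay below the floor in every array, where the HOXB means were 4.32 to 4.88. The mean of the list was 2.06 in KO 1 and 2.19 in each of KO 3 and KO 5. For 9 testis and sperm genes the mean reached 6.09 (WT 1), 5.05 (WT 2) and 4.66 (KO 4), against 3.09 to 3.72 elsewhere. The mean over 9 immediate early genes, induced within minutes of a stimulus, was 4.74 to 5.22 in WT and 6.95, 6.96, 5.94, 5.01 and 5.25 in KO, so the 2 KO arrays with the lowest HOXB means had the highest values. The part of these transcripts in the HOXB values was not tested. Without WT 1 and KO 4 the log2 fold change was -0.36 for Hoxb6, -0.05 for Hoxb8 and 0.32 for Hoxb9, and without KO 1 and KO 2 it was 0.44, 0.98 and 1.10.

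Emx2, a homeobox gene of the urogenital tract, was singled out after its values were seen because its arrays were ordered nearly as those of HOXB. It read 3.63, 3.19 and 4.13 in WT and 2.19, 3.20, 4.72, 5.08 and 4.21 in KO, with KO 1 lowest and KO 4 highest. Its log2 fold change was 0.23 (SE 0.576, adjusted p = 0.914 in limma). Of the other position genes, 3 that were too dim to be tested separated the groups, also noted afterwards. Sim1 read 2.28 to 2.58 in WT and 2.75, 2.72, 3.29, 3.75 and 3.24 in KO, all KO arrays above WT (log2 fold change 0.71, unadjusted p = 0.0115 and adjusted p = 0.487 in limma without the level filter). Irx1 read 2.27 to 2.38 in WT and 2.45, 3.02, 2.52, 3.76 and 2.70 in KO (0.55, unadjusted p = 0.0673), and Tbx18 read 3.597 to 3.629 in WT and 3.42, 2.92, 3.24, 3.27 and 3.31 in KO, all below WT (-0.38, unadjusted p = 0.0195, adjusted p = 0.504). Without the filter 6.57% of all genes separated.

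HOXC held the brightest HOX genes. Hoxc8, a gene of the thoracic level that is also known from white preadipocytes, read 9.18, 8.93 and 8.98 in WT, a WT mean above that of 97.4% of all genes. In KO it read 9.42, 9.33, 9.08, 8.63 and 8.35. KO 1 and KO 2 lay above all WT arrays and KO 4 and KO 5 below them, nearly the reverse of the order in HOXB, and the log2 fold change was -0.07 (SE 0.239, adjusted p = 0.942 in limma).

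Hoxc6, also a thoracic gene, read 7.11, 7.24 and 6.96 in WT and 6.47, 6.44, 7.05, 6.88 and 7.25 in KO. KO 1, KO 2 and KO 4 lay below all WT arrays and KO 5 just above them. The log2 fold change was -0.28 (SE 0.200, adjusted p = 0.645 in limma), and without KO 1 and KO 2 it was -0.04.

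Hoxc4 had the smallest unadjusted p of the 16 HOX genes (0.0966). It read 5.26, 5.47 and 5.02 in WT and 5.08, 4.75, 4.78, 5.31 and 4.78 in KO. KO 2, KO 3 and KO 5 lay below the WT arrays and KO 1 and KO 4 among them. For Hoxc4, KO minus WT was -0.31 (log2, SE 0.170, adjusted p = 0.548 in limma, exact permutation p = 0.179, two-sided). Without KO 4, its highest KO array, the difference was -0.40 (unadjusted p = 0.0289, adjusted p = 0.425 in limma). Over the runs that left out 1 array the difference ran from -0.43 to -0.20.

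Hoxc9, a repressor of other HOX genes in motor neurons, was the posterior HOX gene of highest WT signal, at 4.14 ± 0.276 (SD, n = 3) in WT and 4.20 ± 0.248 (SD, n = 5) in KO. Hoxc5 (2.93 in WT) and Hoxc10 (2.87), a gene of the lumbar level and of subcutaneous fat, lay just above the floor and were not tested. Hoxc12 read 2.42 in WT, Hoxc13, a hair and nail gene, 1.72, and Hoxc11 1.71, all below the floor.

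HOXD was represented by Hoxd8 alone among the tested genes. It read 5.53, 5.06 and 5.26 in WT and 5.24, 5.05, 5.40, 5.24 and 4.82 in KO. The groups overlapped throughout and only KO 5 lay clearly below WT, and KO minus WT was -0.13 (log2, SE 0.164, adjusted p = 0.813 in limma). Hoxd10, the second brightest HOXD gene, read 3.01, 2.74 and 3.45 in WT and 3.23, 2.87, 2.79, 3.15 and 3.52 in KO, and its annotated span overlaps Hoxd11. Hoxd3 (2.65 in WT) and Hoxd9 (2.73) also lay above the floor. Hoxd11, Hoxd12 and Hoxd13, which shape the limb and the genital bud, read 2.05, 1.85 and 2.01 in WT, and Hoxd1 read 2.41.

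The 20 HOX genes below the level for testing had log2 fold changes from -0.52 (Hoxb2) to 0.37 (Hoxb8), 15 of them higher and 5 lower in KO. None had an unadjusted p under 0.05 when limma was run without the level filter, where 8.44% of 22180 genes had, and none separated the groups. Probe sets annotated to more than 1 gene were kept out of the 36. Among these, a probe set of Hoxd3 and Hoxd4 read 4.75 ± 0.726 (SD, n = 3) in WT and 4.94 ± 0.488 (SD, n = 5) in KO, and a probe set of Hoxa7 and Mira, a transcript near it, read 6.32 ± 0.136 and 6.05 ± 0.280. A probe set of Hoxb2 and Hoxb3 read 3.95 ± 0.311 and 4.20 ± 0.377. The pair of probe sets shared by Hoxa11 and its antisense transcript read 2.10 and 1.75 in WT, below the floor like those of the neighbours Hoxa10 and Hoxa13.

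The clusters also hold microRNA genes, miR-10 beside the group 4 genes and miR-196 near the group 9 genes, and miR-196 is known to repress Hoxb8 and Hoxc8 mRNA. Their mature 5p strands are shown from RefSeq (GRCm38.p6) with the seed, bases 2 to 8, in capitals, because the 4 sequences fall into 2 seed families that span the clusters. The miR-10 pair shares the seed ACCCUGU and the miR-196 pair shares AGGUAGU.
miR-10a-5p: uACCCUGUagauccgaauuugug
miR-10b-5p: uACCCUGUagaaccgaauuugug
miR-196a-5p: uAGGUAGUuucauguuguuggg
miR-196b-5p: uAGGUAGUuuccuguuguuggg

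The array reads the miRNA gene, not the mature strand. Of these genes Mir196a-1, in HOXB, lay above the floor, and it read 2.87, 2.69 and 3.21 in WT and 2.53, 2.74, 4.36, 2.50 and 4.25 in KO. KO 3 and KO 5 stood above all the other arrays, and it was too dim to be tested. Mir10b (1.79 in WT) and Mir196a-2 (1.94) lay below the floor, and Mir615, inside HOXC, read 2.85. Hotair, the antisense long non-coding RNA of HOXC, read 1.81 in WT and 1.84 in KO, under the floor in both. Of 21 listed non-coding RNAs and EVX genes of the clusters 9 were measured and 1 was tested, Hoxd3os1, for which KO minus WT was 0.27 (log2, SE 0.294, adjusted p = 0.784 in limma).

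Among the proteins that act with or on HOX genes none passed the adjusted threshold, and the 4 tested genes that had an unadjusted p under 0.05 (Meis1, Eed, Aldh1a1 and Aldh1a3) also separated the groups. They were 1 of 7 tested TALE genes, 1 of 15 Polycomb genes, 0 of 9 trithorax genes, and 1 higher and 1 lower of 7 CDX and retinoic acid genes. Of all tested genes 10.5% had such a p and 8.53% separated the groups. Of the TALE cofactors 7 of 9 listed genes were tested, 4 higher and 3 lower in KO, with a median log2 fold change of 0.01. Meis1, which binds DNA together with HOX and PBX proteins, read 7.44, 7.33 and 7.35 in WT and 6.63, 6.25, 7.29, 7.13 and 6.73 in KO. All KO arrays lay below all WT arrays, KO 3 by a small margin. The log2 fold change was -0.57 (SE 0.218, unadjusted p = 0.0261, adjusted p = 0.405 in limma), and it was -0.32 without KO 1 and KO 2 (unadjusted p = 0.0983). With WT 1, WT 2, WT 3 or KO 1 left out alone, the unadjusted p of Meis1 was not under 0.05. Beside Meis1, the endothelial marker list had 5 of 6 genes lower in KO. Its array means were 7.68 to 7.97 in WT and 7.28 to 7.59 in KO, and its part in the Meis1 value was not tested. The other members named by p were Pknox1 (-0.27), Pbx3 (0.14) and Pknox2 (0.15), while Meis2 (0.01) read 6.47 in WT and 6.49 in KO.

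**Figure D4:**
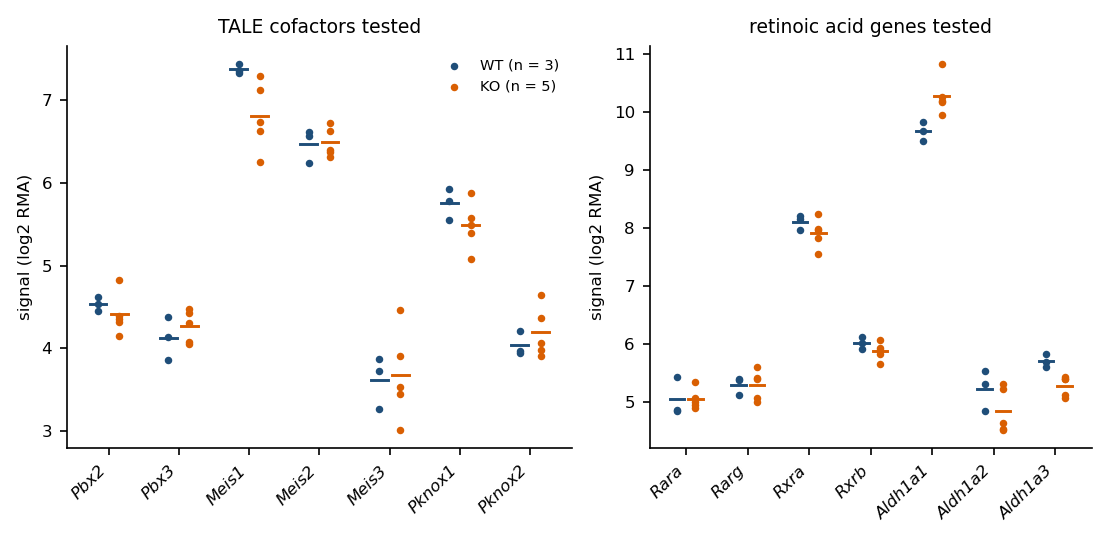
Signal (log2 RMA values, vertical axes) of the tested TALE cofactors (left) and of the tested retinoic acid genes (right), with 1 point per array and bars at the means of WT (blue, n = 3) and KO (orange, n = 5). All KO points of Meis1 and Aldh1a3 lie below, and those of Aldh1a1 above, all WT points, while the other genes overlap between the groups.

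The Polycomb list, which holds HOX genes silent through histone H3 lysine 27 methylation and chromatin compaction, had 15 of 19 genes tested, 5 higher and 10 lower, with a median of -0.06. Eed, the subunit that reads this methyl mark, read 6.93, 6.76 and 6.75 in WT and 6.41, 6.49, 6.43, 6.57 and 6.50 in KO. All KO arrays lay below all WT arrays, and KO minus WT was -0.34 (log2, SE 0.112, unadjusted p = 0.0133, adjusted p = 0.352 in limma). The unadjusted p of Eed was not under 0.05 without WT 1, without WT 1 and KO 4, or without KO 1 and KO 2. The accessory subunit Mtf2 was at -0.25, Pcgf2 of the other Polycomb complex at -0.24 and the methyltransferase Ezh1 at 0.21, all with overlapping arrays. The methyltransferase Ezh2 (0.02) and its partner Suz12 (-0.05) lay close to 0. At an unadjusted p under 0.05, 1 of the 15 genes was lower and none higher, a share near that of all tested genes (6.46% lower, 4.04% higher). With the replicate block Ezh1 was higher as well (0.38, unadjusted p = 0.0327), where 18% of all genes had such a p.

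The trithorax list, whose proteins keep active HOX genes on, had 9 of 10 genes tested, 4 higher and 5 lower, with a median of -0.05 and none at an unadjusted p under 0.05, where 10.5% of all tested genes had one. With the replicate block 1 was lower (Kdm6b), and with array weights 1 was lower (Kmt2b). Kdm6a, which removes the Polycomb mark, read 7.62, 7.62 and 7.68 in WT and 7.47, 7.21, 7.50, 7.52 and 7.51 in KO. All its KO arrays lay below WT, and KO minus WT was -0.20 (log2, SE 0.120, adjusted p = 0.595 in limma), and KO 2 lay lowest. Ash2l, a core subunit of the methyltransferase complexes, was the other gene whose arrays separated, at 0.13, where 8.53% of all tested genes did. The subunit Dpy30 was at 0.26, Kmt2b at -0.23 and Rbbp5 at -0.14, with overlap.

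Retinoic acid and CDX proteins switch on HOX genes in the embryo. The 3 Cdx genes lay below the floor in WT (2.05 to 2.36). Of 14 listed genes 7 were tested, 2 higher and 5 lower, with a median of -0.14. At an unadjusted p under 0.05 in limma 1 of the 7 was higher and 1 lower, against 4.04% and 6.46% of all tested genes. In 2 of the 7 the groups separated, as in 8.53% of all tested genes. Aldh1a1, the main retinaldehyde dehydrogenase of adult fat, read 9.67, 9.83 and 9.51 in WT and 10.3, 9.96, 10.2, 10.8 and 10.2 in KO. All KO arrays lay above all WT arrays, KO 4 highest, and KO minus WT was 0.61 (log2, SE 0.191, unadjusted p = 0.00927, adjusted p = 0.331 in limma).

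Aldh1a3, which makes retinoic acid from the same substrate, went the other way. It read 5.83, 5.60 and 5.69 in WT and 5.40, 5.07, 5.12, 5.39 and 5.44 in KO, again without overlap, at -0.42 (SE 0.136, unadjusted p = 0.0109, adjusted p = 0.335 in limma). Without WT 1 and KO 4 the unadjusted p of Aldh1a3 was not under 0.05. Aldh1a2 was at -0.39 and the receptor Rxra at -0.19, both with overlap, while the retinoic acid receptors Rara (0.01) and Rarg (-0.004) lay at 0.

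Other transcription factors of position and fat depot were read in both genotypes as further marks of the depot. Of 24 listed genes 23 were measured and 15 lay above the floor in WT. The mesothelial and visceral genes Wt1 (5.86 ± 0.523 in WT, SD, n = 3), Gata6 (7.53 ± 0.104) and Osr1 (8.27 ± 0.254) were among them. Tbx15, Shox2 and En1, known from subcutaneous fat and the body wall, read 1.94, 2.18 and 1.95, and Zic1 and Lhx8, known from brown fat, read 2.02 and 2.14, all below the floor. Tbx5 (2.34), Irx1 (2.34) and Sim1 (2.44) lay below it too. Other genes of the list lay above it in WT, among them Irx3 (5.51), Irx2 (3.41), Foxc2 (3.03), Pax3 (2.89) and Irx5 (2.67). Of the 8 tested, 4 were higher and 4 lower in KO and none had an unadjusted p under 0.05. With the replicate block Nr2f2 was lower (-0.44, unadjusted p = 0.0114, adjusted p = 0.176 in limma), as with array weights (-0.42, unadjusted p = 0.0129). The nuclear receptors Nr2f2 and Nr2f1 were at -0.33 and -0.34, Osr1 at -0.37 and Gata6 at -0.18.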

How the data were processed

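Epididymal fat of 3 WT and 5 KO mice was measured on 1 array each, and the sample titles gave groups and replicate numbers. The deposited values are log2 signals per probe set made with RMA (background correction, quantile normalization and probe summary), and RMA and oligo are named per the submitters' processing notes, whereas the series text names Expression Console. The sources used here give no tool versions and no genome build. Values were used as deposited, and their number limits the precision. RMA compresses differences of dim probe sets.

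Of 41345 probe sets 23521 had 1 gene symbol in the platform annotation, which can be old, 1814 had several and 16010 had none listed. RefSeq tables of GRCm38.p6 gave gene order, overlaps and sequences. KO and WT were compared with limma's lmFit and eBayes (limma 3.58.1, R 4.3.3) over 11090 genes, two-sided, with Benjamini-Hochberg adjustment over all of them at 0.05. The procedure was tested on simulated data. Figures were drawn with matplotlib 3.10.9 (Python 3.11.15). Array values are given for the 8 HOX genes of smallest p and the 2 brightest of each cluster, and for Hoxb2, Hoxb7 and Hoxb8, chosen after their values were seen. Of each pathway list, up to 4 tested genes of smallest p are named, and any others, including those named as at or near background or separated, were added after their values were seen. The members and lists were chosen with earlier results of these data known. Each mouse is a replicate.

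WT and KO share the numbers 1 to 3. Over the tested genes, departures from the group mean correlated between same-numbered arrays at 0.133, 0.103 and 0.192, all above 0.1. Arrays of unlike number were not set beside them, so these low values do not show that the numbers pair the arrays. The labels do not say what the numbers stand for. The main fit had no block, and the replicate block was run as an alternative. Alternatives were no level filter, the 25th percentile as filter, centred arrays, averaged probe sets, the replicate block, array weights, a trended robust prior, and leaving out each array, WT 1 with KO 4, and KO 1 with KO 2. Those for the pathway genes were chosen after seeing the data.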

Additional observations from a re-analysis of the deposited data

Results flagged for a closer look

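In 5 of 83 sets of KO values, 1 array lay apart from the other 4 by more than the 95% limit of Dixon's ratio for 5 values, and chance gives about 1 in 20. Hoxa4 read 4.777 in KO 1 against 4.283 to 4.413 in the other KO arrays. Hoxb13, below the floor, read 1.755 in KO 3 against 2.233 to 2.372. Of the chromatin genes, Mtf2 read 5.092 in KO 3 against 4.767 to 4.86, Ash2l 6.305 in KO 4 against 5.943 to 6.029, and Kdm6a 7.21 in KO 2 against 7.474 to 7.517.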

How the results depend on the processing

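No HOX gene passed the adjusted threshold under any alternative run. Few genes of any kind did. Of 11090 genes, 40 passed with array weights, 5 without KO 5, 3 with the trended robust prior and 2 with the replicate block. No gene passed in the other runs. With the replicate block 1 HOX gene was higher and 3 were lower at an unadjusted p under 0.05, where 18% of all genes had such a p, and Hoxc8 changed sign (0.24). With array weights 1 was lower, against 16.9% of all genes with such a p, and Hoxc8 was at 0.11. With centred arrays Hoxa7 (0.0326) and Hoxb4 (0.0222) changed sign. Without WT 1 and KO 4 Hoxc8 was at 0.0875 and Hoxd3os1 at -0.0095. Without KO 1 and KO 2, 2 of 17 HOX genes were higher at an unadjusted p under 0.05 (Hoxb6 and Hoxb9), where 9.38% of all genes had such a p. In both genes the arrays left out were the lowest KO arrays. In that run 3 separated the groups (Hoxa4, Hoxb6 and Hoxb9), where 15.8% of all genes did. Hoxa2 (0.031), Hoxa3 (0.0207), Hoxa7 (0.0107), Hoxb3 (0.13), Hoxb4 (0.25) and Hoxb6 (0.44) turned positive. With the median of all genes as floor 15 HOX genes lay above it in WT. Leaving out 1 array at a time gave 0 to 1 HOX gene higher and 0 to 1 lower at an unadjusted p under 0.05 (lower were Hoxa4 without KO 1, Hoxc4 without KO 4 and Hoxa6 without KO 5). Of all genes 6.68% to 14.4% had such a p in these runs. The count separated was 0 to 1 (Hoxa4 without KO 1), where 9.93% to 14.6% of all genes separated. The median was -0.21 to -0.05, and 24 to 25 genes lay above the floor. The sign changed for Hoxa7 (-0.0878 to 0.0945), Hoxb4 (-0.14 to 0.13), Hoxb6 (-0.29 to 0.20), Hoxc8 (-0.18 to 0.0828) and Hoxd3os1 (-0.091 to 0.39). The causes were not tested. Without the level filter the median over 36 HOX genes was 0.01. Of 556 values of single genes under the alternatives, 533 kept their direction and their side of the threshold. Part of this was fixed in advance. A change of the level filter or of the prior cannot alter a log2 fold change, and no gene passed the adjusted threshold in the main fit.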
